A study of Mus musculus with 80 samples.

Results

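Livers of mice given carbon tetrachloride (CCl4) or its oil vehicle were examined for 10 plasma proteins of the acute phase response other than the serum amyloid A family: Lcn2, Orm1, Orm2, Hp, Hpx, Fga, Fgb, Fgg, Itih4 and Crp. The genes were chosen by name, and 10 of 10 were found among the 14560 genes of the deposited table. All 10 exceeded the filter on low values used for testing. RNA came from whole liver of female mice aged 8 weeks, 5 mice in each of 16 groups. Wild-type C57BL/6J and Adamts12-/- C57BL/6J animals received a single intraperitoneal dose of CCl4, 0.3 ml per kg, diluted to 3% in olive oil, or olive oil without CCl4. Livers were taken 4 h, 12 h, 24 h or 7 days later. Every group had an injection, so no group of livers shows the level without one, and the 7 day vehicle livers served as the late reference. Adamts12 encodes a secreted metalloproteinase of the ADAMTS family. Nothing in the labels restricts the knockout to a cell type, and the part of the gene deleted is not given in the sources used here. Mouse numbers in the labels differ between all livers, so replicates are separate animals. Values are read counts that the authors normalized for library size, called normalized counts below.

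The acute phase response is the change in hepatocyte output of plasma proteins that follows infection, injury or surgery. Interleukin-6, acting through its receptor and STAT3, and interleukin-1, acting through NF-kB and C/EBP factors, are its best known drivers in liver, and glucocorticoids strengthen it. The proteins that rise bind haemoglobin (haptoglobin, Hp), haem (hemopexin, Hpx) or bacterial siderophores (lipocalin 2, Lcn2), form clots (the fibrinogen chains Fga, Fgb and Fgg), or carry lipids and drugs (the orosomucoids Orm1 and Orm2). Itih4 belongs to the inter-alpha-trypsin inhibitor heavy chains, and C-reactive protein (Crp), a major reactant in people, is known as a weak one in mice.

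CCl4 is activated in hepatocytes by Cyp2e1 and kills the cells around the central vein. Knockout livers had less Adamts12 RNA but not none, with a median of 6.7 normalized counts and a range of 0.9 to 25.4 over 38 livers, against a median of 18.8 and a range of 5.9 to 75.6 over 40 wild-type livers. The difference was -1.43 ± 0.23 on the log2 scale (± SE throughout) over vehicle livers (limma, adjusted p = 8.54e-05). Hepatocyte markers were abundant in every group, and the summed count of the 12 markers was never below 1419361. Two-sided tests used limma on log2(value + 1) over 14558 genes with Benjamini-Hochberg adjustment, and a change was called at an adjusted p under 0.05. Library depth ran from 18.6 M to 64.5 M reads with a median of 32.7 M. The lowest value of any of the 10 genes was 281 normalized counts, so counting error was small beside the differences between animals.

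In 2 of the 80 livers the profile was that of the other treatment, and both were left out, leaving 78. Replicate 5 of the knockout 12 h CCl4 group held 126460 normalized counts of Cyp2e1 and 0 of Sprr1a, a gene at 30657 to 94113 in the 4 other livers of its group. Replicate 1 of the knockout 12 h vehicle group held 34078 of Cyp2e1 and 55860 of Sprr1a, a gene at 0 to 7 in the 4 others. With both livers kept, the knockout comparison at 12 h changes as given beside that result.

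Promoters of the fibrinogen genes, which moved together, and of Lcn2, which had the largest fold, are shown first, because the factors of the acute phase response act through short motifs near the start site. Sequences are from RefSeq on GRCm38.p6, 250 bases before to 50 after the start, 5′ to 3′ on the gene's strand. Capitals mark matches to the STAT motif TTCNNNGAA, the C/EBP motif TTNNGNAA and the type II interleukin-6 element CTGGGAA, searched on both strands. Promoters of Orm1, Orm2 and Hp were not used here.
Fga, chr3:83025903-83026202, plus strand: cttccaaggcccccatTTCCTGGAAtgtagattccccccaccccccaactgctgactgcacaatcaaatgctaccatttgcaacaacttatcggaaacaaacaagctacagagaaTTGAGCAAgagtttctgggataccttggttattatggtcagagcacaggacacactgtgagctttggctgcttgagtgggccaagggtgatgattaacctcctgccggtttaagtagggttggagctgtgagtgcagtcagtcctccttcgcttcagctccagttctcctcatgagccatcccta
Fgb, chr3:83049814-83050113, minus strand: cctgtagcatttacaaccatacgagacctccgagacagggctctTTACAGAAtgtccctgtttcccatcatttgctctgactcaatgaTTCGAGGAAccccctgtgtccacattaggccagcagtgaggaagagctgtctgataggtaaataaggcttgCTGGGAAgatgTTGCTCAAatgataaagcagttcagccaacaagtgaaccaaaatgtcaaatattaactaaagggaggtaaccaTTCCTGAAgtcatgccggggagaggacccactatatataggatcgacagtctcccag
Fgg, chr3:83007474-83007773, plus strand: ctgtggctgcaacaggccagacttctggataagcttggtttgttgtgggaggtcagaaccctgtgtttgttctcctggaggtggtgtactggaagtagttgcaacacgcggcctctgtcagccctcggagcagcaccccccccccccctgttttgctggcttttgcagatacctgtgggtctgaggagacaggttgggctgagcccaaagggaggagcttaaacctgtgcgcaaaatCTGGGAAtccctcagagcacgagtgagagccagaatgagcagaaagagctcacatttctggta
Lcn2, chr2:32387690-32387989, minus strand: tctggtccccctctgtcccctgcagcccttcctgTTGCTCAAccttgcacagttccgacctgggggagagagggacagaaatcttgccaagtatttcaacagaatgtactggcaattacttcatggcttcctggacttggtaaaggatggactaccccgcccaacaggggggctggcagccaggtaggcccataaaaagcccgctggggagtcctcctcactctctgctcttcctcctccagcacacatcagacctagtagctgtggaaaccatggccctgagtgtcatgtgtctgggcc

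A STAT match stood in the promoters of Fga, Fgb and Itih4, against 8.33% of all 32544 RefSeq promoters of this length. Fgb and Fgg held the type II element, found in 11% of all promoters. Lcn2, Hpx, Fga, Fgb and Crp held a C/EBP match, which 40.7% of promoters have. Of the 7 promoters searched, 0 held the NF-kB motif, present in 1.61% of all. Crp held the TATA box letters TATAAA, present in 13.6%, at -31 on the gene's own strand. In Itih4 these letters stood on the opposite strand only, at -3. In Fgb the type II element began at position -91 from the start and a C/EBP match followed at -80. These matches describe the letters only.

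All 10 genes changed in livers that received oil without CCl4. At 12 h and 24 h after the injection, vehicle livers held several-fold more acute phase RNA than vehicle livers at 7 days, in both genotypes. Against the 7 day vehicle livers of the same genotype, 10 of 10 genes rose in wild type at 12 h, where 13.4% of all genes tested rose. At 24 h 9 of 10 rose, against 2.74% of all genes, and Crp was at 0.60 ± 0.23 (limma, adjusted p = 0.111). In knockout livers 10 of 10 rose at 12 h and at 24 h, against 11.1% and 9.75% of all genes. Fewer rises were called at 4 h, 3 of 10 in wild type (11.4% of all genes) and 5 of 10 in knockout (14.5%). With the spread estimated from the 2 groups compared alone, 7 were called in wild type and 8 in knockout at 4 h. The median difference of the 10 genes from 7 day vehicle was 1.02 at 4 h, 2.08 at 12 h and 2.04 at 24 h in wild type, and 0.84, 1.53 and 2.10 in knockout, on the log2 scale. The median over all genes in these comparisons lay between -0.0271 and 0.00837.

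**Figure D1:**
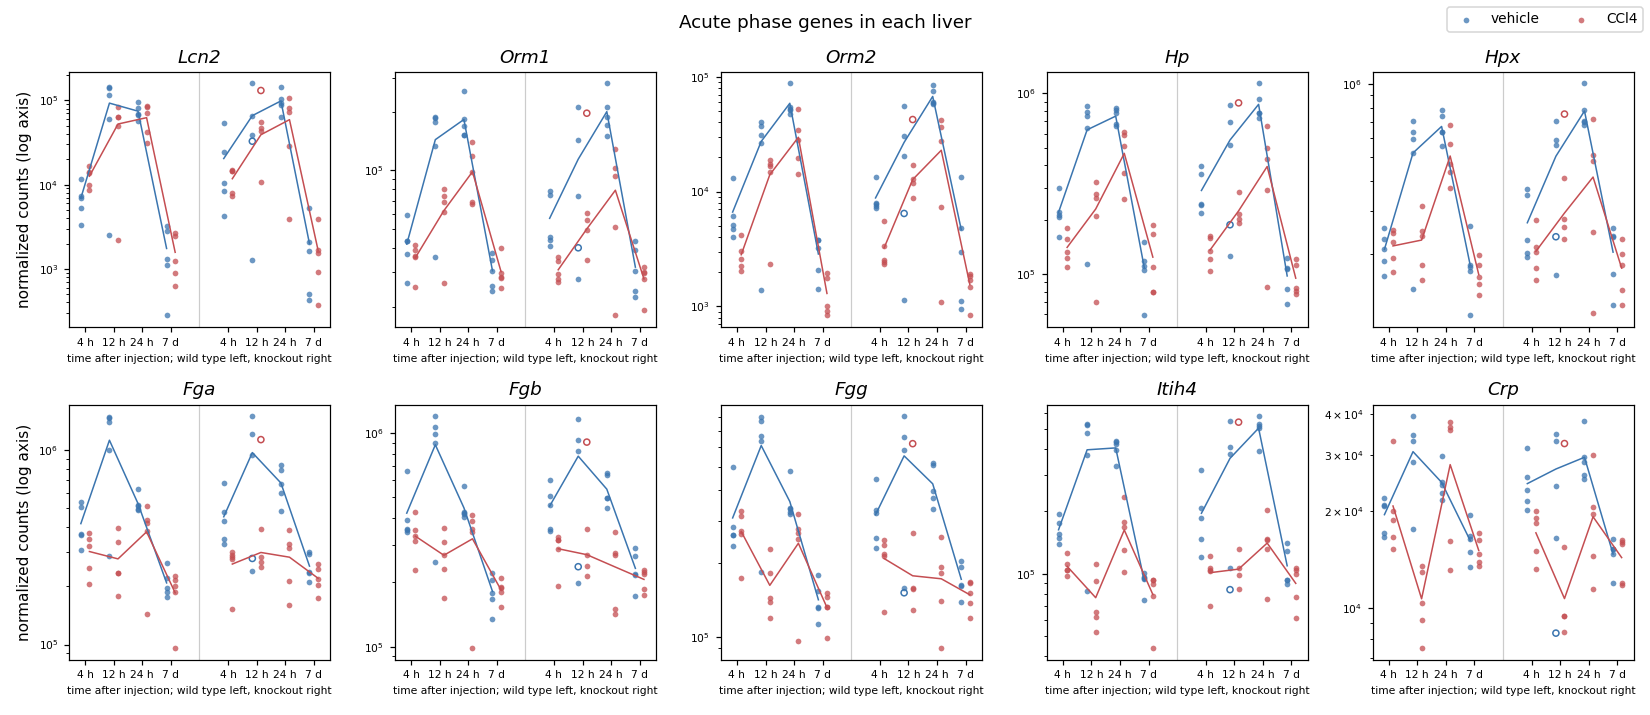
Normalized counts of the 10 acute phase genes in each liver (log axis, a separate scale per gene) against time after injection, wild type on the left and knockout on the right of each panel. Points are livers, lines join group means, blue is vehicle and red is CCl4, and open circles are the 2 livers left out. Vehicle livers at 24 h lie above all 7 day vehicle livers for every gene in both genotypes.

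Lcn2, which withholds iron from bacteria and is made by hepatocytes and by neutrophils, had the largest fold. Wild-type vehicle livers held 1325, 1117, 281, 3209 and 2803 normalized counts at 7 days, and 68825, 57449, 67833, 81316 and 96705 at 24 h. At 12 h the 5 livers held 2544, 140941, 144917, 114707 and 60470. The 24 h livers did not overlap the 7 day livers, whereas replicate 1 at 12 h lay inside the 7 day range, 3 others at 12 h lay above every 24 h value, and 60470 lay within the 24 h range. The difference from 7 days was 5.30 ± 0.89 at 12 h (limma, adjusted p = 1.07e-05) and 5.81 ± 0.89 at 24 h (adjusted p = 7.74e-06). Knockout vehicle livers held 144420, 88007, 103935, 92785 and 62890 at 24 h against 1642, 2066, 5283, 506 and 427 at 7 days, again without overlap, and the difference was 6.18 ± 0.89 (limma, adjusted p = 7.42e-07). At 4 h the rise was called in knockout (3.39 ± 0.89, limma, adjusted p = 0.00221) and in wild type it was 2.29 ± 0.89 with an adjusted p of 0.0559.

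Neutrophil markers moved with Lcn2 in part. Of the 14 markers listed 9 were measured. In wild-type vehicle livers 2 of 9 rose at 4 h, 5 at 12 h and 3 at 24 h, where 11.4%, 13.4% and 2.74% of all genes rose. In knockout livers 4 of 9 rose at 4 h, 1 at 12 h and 2 at 24 h, where 14.5%, 11.1% and 9.75% rose. Their summed count ran from 224 to 529 in wild-type vehicle livers at 7 days, from 185 to 4630 at 12 h and from 425 to 3259 at 24 h. In knockout it ran from 127 to 841 at 7 days, from 807 to 1416 at 4 h, from 191 to 1556 at 12 h and from 309 to 1120 at 24 h. The part of neutrophils in the Lcn2 result was not tested.

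Orm1 and Orm2 encode the acid glycoproteins that bind lipids and basic drugs in plasma. Orm2 rose more. Its wild-type vehicle livers held 2070, 3228, 1428, 3755 and 3805 normalized counts at 7 days and 87345, 54555, 52577, 51741 and 47248 at 24 h. No liver at 24 h was near the 7 day range, and the difference was 4.42 ± 0.71 (limma, adjusted p = 1.89e-05). In knockout the 24 h livers held 74794, 59962, 57671, 85250 and 59113 and the 7 day livers 2965, 4773, 13454, 942 and 1109. The groups were apart, although replicate 3 at 7 days was high for its group, and the difference was 4.53 ± 0.71 (limma, adjusted p = 3.68e-06). Orm1 started from a higher level and rose by less, from 24076 to 37764 at 7 days to 151245 to 256868 at 24 h in wild type. The Orm1 difference was 2.57 ± 0.37 in wild type and 2.67 ± 0.37 in knockout (limma, adjusted p = 2.13e-06 and 2.75e-07).

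Orm2 therefore changed its ratio to Orm1. Its median count as a percent of Orm1 was 9.94% in wild-type vehicle livers at 7 days, 19.8% at 12 h and 33.8% at 24 h, and in knockout 6.85%, 23.7% and 31.7%. Across the 78 livers the log2 ratio of Orm2 to Orm1 had an SD of 1.08, against 2.01 for the log2 level of Orm2. The genes lie within 21.3 kb of each other on chromosome 4, and their transcripts share 148 of 726 windows of 50 bases. Reads from those windows cannot be assigned to 1 gene by sequence, so the split between Orm1 and Orm2 carries that uncertainty. Orm3, the third gene of the cluster, was also higher in vehicle livers at 24 h, by 2.85 ± 0.70 in wild type (limma, adjusted p = 0.00558) and 2.78 ± 0.70 in knockout (adjusted p = 0.00346).

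Hp and Hpx clear free haemoglobin and free haem. Hp in wild-type vehicle livers stood at 105138, 118529, 59154, 110253 and 150536 at 7 days and at 828701, 674873, 781162, 656866 and 805448 at 24 h. The ranges were far apart, and the difference was 2.84 ± 0.41 (limma, adjusted p = 2.16e-06). In knockout livers at 24 h Hp stood at 1136406, 727900, 935478, 778748 and 775120, all above the highest 7 day value of 122549, with a difference of 3.17 ± 0.41 (limma, adjusted p = 8.72e-08). Hpx rose less, from 111727 to 260619 at 7 days to 558144 to 781968 at 24 h in wild type, by 1.94 ± 0.34 (limma, adjusted p = 7.05e-05), and by 1.97 ± 0.34 in knockout (adjusted p = 2.02e-05). Levels of different genes were set per kb of annotated exon, 775 bases for Orm1 and 3810 for Fgb. The transcripts made may be shorter than this length, so the order of genes is approximate. Hpx was the highest of the 10 genes in wild-type vehicle livers at 7 days, at 120107 normalized counts per kb. Fga followed at 68854, Fgg at 67755, Hp at 67697, Fgb at 47579, Orm1 at 39407, Itih4 at 25053, Crp at 4712 and Orm2 at 3687. At 24 h Hp was at 466631 per kb and Hpx at 446982, levels that do not differ beyond the spread of either, and Orm1 came next at 235817. Lcn2 was the lowest of the 10 at 7 days, at 666 per kb, and above Crp at 24 h, at 28374 against 7144.

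The fibrinogen chains Fga, Fgb and Fgg lie within 42.1 kb on chromosome 3 and assemble into 1 clotting protein. Their vehicle group means were highest at 12 h in both genotypes. Fga in wild-type vehicle livers stood at 506403, 365667, 307270, 541559 and 367766 at 4 h. At 12 h it stood at 284843, 1448541, 1392824, 1471890 and 1002891, and at 24 h at 489071, 517371, 518236, 494854 and 628099. The 7 day livers stood at 219117, 194894, 175264, 260711 and 186263. All 4 h, 12 h and 24 h livers were thus above the 7 day livers, and 4 of the 5 livers at 12 h were above every liver at 24 h, with replicate 1 far below its group. The Fga differences from 7 days were 0.99 ± 0.34 at 4 h, 2.24 ± 0.34 at 12 h and 1.36 ± 0.34 at 24 h (limma, adjusted p = 0.0298, 2.81e-06 and 0.00756). In knockout vehicle livers Fga stood at 944870, 237508, 1488104 and 1201066 at 12 h, at 784500, 601945, 665310, 487577 and 838067 at 24 h, and at 231741, 290685, 297509, 234390 and 209756 at 7 days. Replicate 3 at 12 h lay inside the 7 day range and the 3 others lay above every 24 h value, and the difference from 7 days was 1.67 ± 0.36 at 12 h (limma, adjusted p = 0.000671).

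Fgb and Fgg followed the same course. Fgb in wild-type vehicle livers averaged 880074 at 12 h, 4.85-fold its 7 day mean, and Fgg averaged 610343, 4.30-fold. The fall of the chains between 12 h and 24 h was compared after the values were seen. In wild-type vehicle livers it was -0.88 for Fga, -0.81 for Fgb and -0.62 for Fgg, and limma called 0 of the 10 genes, against 7.93% of all genes and with 3 of the 10 at an unadjusted p under 0.05. Without replicate 1 of the wild-type 12 h vehicle group, 3 of 10 were called, and with all 4 low livers described below left out these were Fga at -1.32 ± 0.27, Fgb at -1.22 ± 0.26 and Fgg at -1.01 ± 0.25 (limma, adjusted p = 0.000621, 0.0011 and 0.00447). In knockout livers 0 of 10 differed between 24 h and 12 h (1.56% of all genes, with 5 of 10 at an unadjusted p under 0.05). With all 80 livers 2 were called there, both higher at 24 h. The knockout vehicle means of Lcn2, Orm1, Orm2, Hp, Hpx, Itih4 and Crp were highest at 24 h, unlike those of the chains. For Crp this rests on knockout 12 h vehicle replicate 3. Without that liver the Crp mean was 30559 at 12 h, against 29431 at 24 h.

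**Figure D2:**
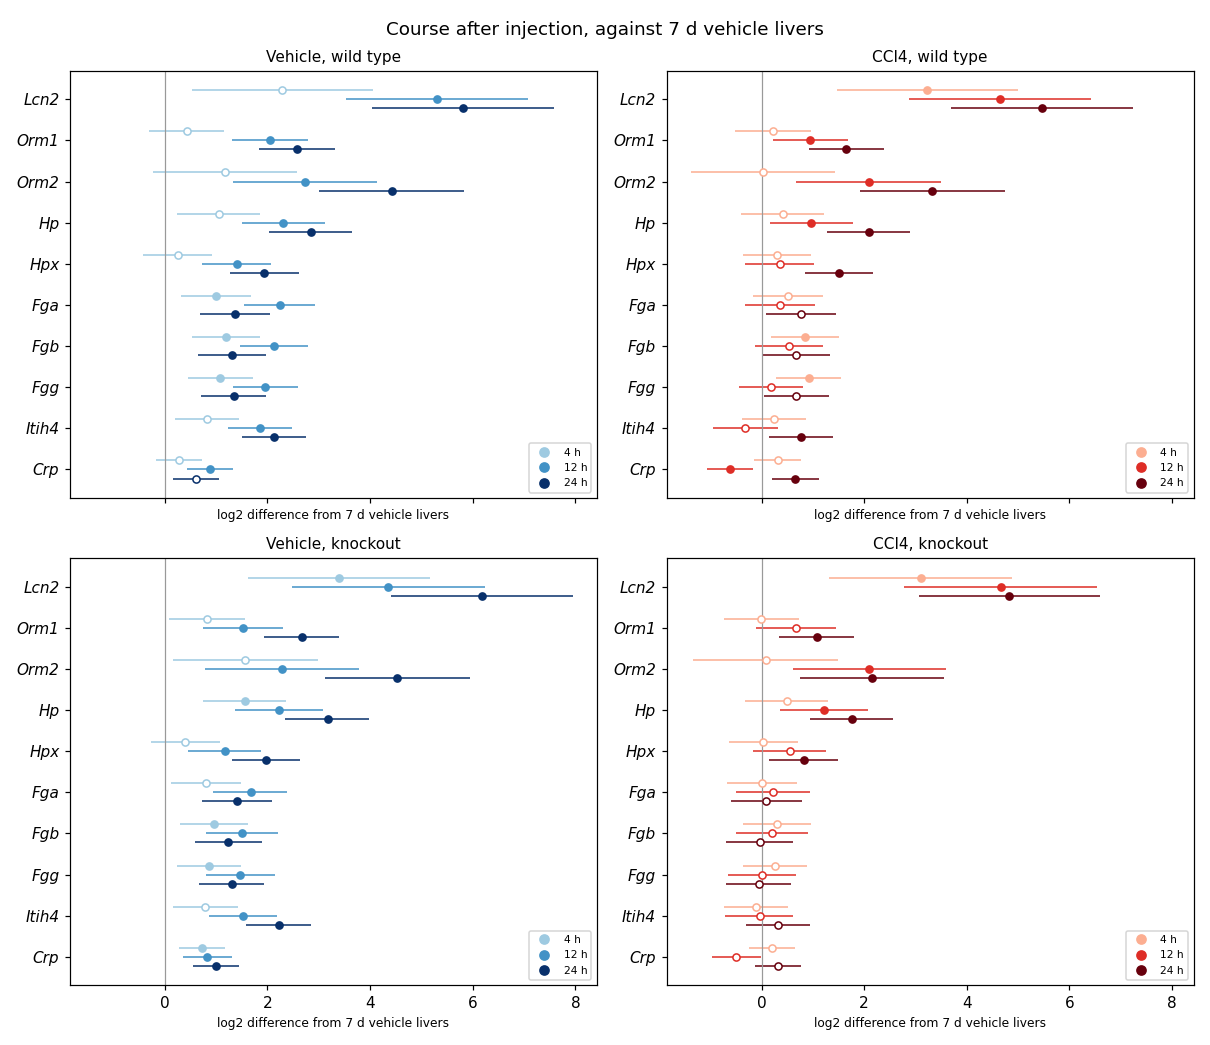
Difference of each group from the 7 day vehicle livers of its genotype, on the log2 scale, with 95% intervals, for vehicle livers (left) and CCl4 livers (right) of wild type (top) and knockout (bottom). Filled points passed an adjusted p under 0.05. Lcn2 lies farthest right in all 4 panels, and the fibrinogen chains sit near 0 in knockout CCl4 livers.

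**Figure D3:**
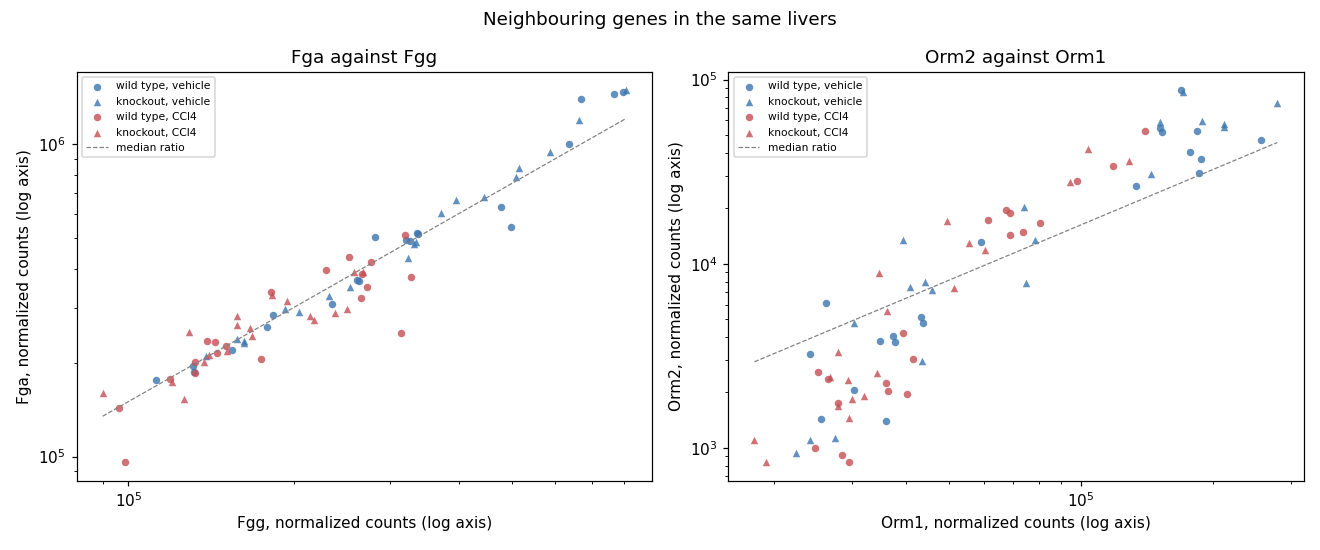
Fga against Fgg (left) and Orm2 against Orm1 (right), normalized counts on log axes, 1 point per liver for 78 livers, coloured by treatment and shaped by genotype. The dashed line is the median ratio: the fibrinogen points follow it closely, while Orm2 is below it in livers low in Orm1 and mostly above it in livers high in Orm1.

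The ratios between chains varied far less than their levels. Across the 78 livers the log2 ratio of Fgb to Fgg had an SD of 0.146, while the log2 level of Fgb had an SD of 0.777. Fga to Fgg had an SD of 0.222. Of the 45 pairs among the 10 genes, Fgb and Fgg were the closest, with Pearson's r of 0.982 over log2 values, and Lcn2 and Crp the least alike at 0.48, with a median of 0.771. These correlations describe livers that share treatment and time.

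Itih4, the inter-alpha-trypsin inhibitor heavy chain of the acute phase, stood at 96837, 95493, 74411, 100582 and 94911 in wild-type vehicle livers at 7 days. It stood at 82448, 521183, 529401, 479237 and 372783 at 12 h and at 396665, 434795, 439008, 425334 and 331364 at 24 h. Replicate 1 at 12 h was again inside the 7 day range, and all other livers of 12 h and 24 h were more than 3 times the highest 7 day liver. The difference was 1.85 ± 0.32 at 12 h and 2.13 ± 0.32 at 24 h (limma, adjusted p = 1.44e-05 and 3.85e-06). Of the 5 other genes of the family, Itih3 rose by 1.63 ± 0.25 and Ambp by 0.53 ± 0.14 in wild type at 12 h (limma, adjusted p = 2.81e-06 and 0.00373), Itih5 fell by 1.08 ± 0.35 (adjusted p = 0.0178), and Itih1 and Itih2 were at 0.09 ± 0.16 and 0.15 ± 0.18.

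Crp had the smallest folds. Wild-type vehicle livers held 17669, 34558, 28375, 33120 and 39482 normalized counts at 12 h and 16791, 13407, 14947, 16454 and 19545 at 7 days. At 12 h 4 of the 5 livers were above all 7 day livers, and the difference was 0.88 ± 0.23 (limma, adjusted p = 0.00274). Its highest vehicle group mean was 1.89-fold the 7 day mean in wild type and 2.00-fold in knockout. For comparison, that fold was 53.1 and 49.6 for Lcn2 and 20.5 and 14.5 for Orm2. Without knockout 7 day replicate 3 the knockout folds were 84.8 for Lcn2 and 27.5 for Orm2. With all livers it was 6.89 and 8.91 for Hp, 5.98 and 6.29 for Orm1, 4.39 and 4.62 for Itih4, and 3.72 and 3.81 for Hpx. In all, the 10 genes held a median of 3% of the normalized counts of a wild-type vehicle liver at 7 days, 13.5% at 12 h and 9.3% at 24 h.

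The separation of vehicle livers from the 7 day livers was complete at 24 h. For 10 of 10 genes the 24 h and 7 day groups did not overlap in either genotype, against 5.89% of all genes in wild type and 7.51% in knockout. At 12 h, 3 of 10 in wild type (10% of all genes) and 2 of 10 in knockout (7.67%) did not overlap, and at 4 h 7 of 10 (9.97%) and 5 of 10 (10.3%). A test over all 4 vehicle times called 10 of 10 genes in each genotype, against 38.9% of all genes in wild type and 41.7% in knockout. Mice numbered below 7000 in the labels made up 4 of the 5 wild-type vehicle livers at 24 h and 2 of the 5 at 7 days. Without the 12 such mice, all wild type, the 24 h group has 1 liver and 3 of 10 genes were called. The 4 h counts also turned on single livers: without wild-type 4 h vehicle replicate 4 the wild-type count was 1, and without knockout 4 h vehicle replicate 4 or knockout 7 day vehicle replicate 5 the knockout count was 3. Without knockout 12 h vehicle replicate 4 the knockout count at 12 h was 6, and with the spread estimated from the 2 groups compared alone it was 4 (Lcn2, Hp, Itih4 and Crp).

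In 4 livers most or all of the 10 genes were below every other liver of their group: wild-type 12 h vehicle replicate 1, wild-type 12 h CCl4 replicate 2, knockout 12 h vehicle replicate 3 and knockout 24 h CCl4 replicate 4. Lcn2 in them was 2544, 2221, 1279 and 3886, against 60470 to 144917, 49998 to 82813, 38864 to 158650 and 29064 to 107803 in the other livers of each group. In wild-type 12 h vehicle replicate 1 Sprr1a was 1908, against 2 to 6 in its group, while Cyp2e1 was 174462, near the 173570 to 217379 of the others. It thus had a vehicle level of Cyp2e1 and a Sprr1a count between the treatments. In wild-type 12 h CCl4 replicate 2 Itih4 and Crp lay within the group, at 61855 and 10349, and the 8 other genes below it. Both Sprr1a and Cyp2e1 lay within the group there, at 45055 and 37224. Knockout 12 h vehicle replicate 3 held 0 of Sprr1a and 130964 of Cyp2e1, against 141786 to 179188 in its group. Knockout 24 h CCl4 replicate 4 held 22805 of Cyp2e1, within the 15311 to 31344 of its group. The neutrophil sum was 185, 1047, 191 and 436 in the 4 livers in the order given, below the other livers of the group in 3 of them. The 4 livers were kept. Counts are also given without them where they changed by more than 1.5 times, an alternative chosen after the values were seen: of the counts above, the 4 h counts of vehicle livers became 7 in wild type and 9 in knockout. The 4 h and 7 day groups hold none of the 4 livers. These 4 h counts changed because the spread is estimated over all groups together.

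Of 26 other positive acute phase proteins, 19 rose and 0 fell in wild-type vehicle livers at 12 h, with a median of 1.65, and 18 rose at 24 h in each genotype. Saa2 rose by 7.73 ± 1.09, Saa1 by 6.60 ± 0.98, Lrg1 by 3.12 ± 0.45 and Serpina3m by 1.94 ± 0.27 in wild type at 12 h (limma, adjusted p = 7.53e-07, 1.61e-06, 9.44e-07 and 4.7e-07). Of 15 negative acute phase proteins, those known to fall in this response, 2 rose and 1 fell at 12 h, and 0 changed at 24 h in wild type. The 2 that rose are near the share of all genes that rose there, given above with the vehicle course. The 1 that fell was Serpina6, the corticosteroid-binding globulin, by 1.77 ± 0.58 (limma, adjusted p = 0.0187).

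Of 24 STAT3, C/EBP and NF-kB factors and feedback genes, 9 rose and 3 fell in wild-type vehicle livers at 12 h. The share of all genes that rose in this comparison is given above with the vehicle course. Cebpd rose by 2.44 ± 0.38, Bcl3 by 1.90 ± 0.30 and Cebpb by 1.95 ± 0.39 (limma, adjusted p = 3.26e-06, 3.48e-06 and 0.000148). At 24 h Socs3, the feedback inhibitor of this signal, rose by 2.77 ± 0.52 and Stat3 by 0.92 ± 0.20 (limma, adjusted p = 0.000218 and 0.00139). Of the 13 interleukin-6 family genes listed 8 were measured, and 3 rose and 2 fell at 12 h. The interleukin-6 receptor Il6ra rose by 1.05 ± 0.22 and the oncostatin M receptor Osmr by 1.64 ± 0.37 (limma, adjusted p = 0.000244 and 0.000775), and the cytokines Il6, Osm, Lif, Il11 and Clcf1 were not analysed here. Among 11 interleukin-1 and TNF genes, 3 rose and 1 fell, with the receptor Il1r1 up by 2.58 ± 0.43 (limma, adjusted p = 8.71e-06). Of 11 glucocorticoid response genes 6 rose and 1 fell, with Per1 up by 3.33 ± 0.51, Fkbp5 by 1.70 ± 0.28 and Mt2 by 4.11 ± 0.90 (limma, adjusted p = 2.98e-06, 9.35e-06 and 0.000471). Fewer of the 11 changed in knockout vehicle livers at 12 h, where 2 rose and 1 fell. Per1 rose there by 2.27 ± 0.54 and Fkbp5 by 1.64 ± 0.30 (limma, adjusted p = 0.00176 and 5.94e-05). Mt2 was at 0.49 ± 0.95 there (limma, adjusted p = 0.773). Of 12 hepatocyte markers 3 rose and 0 fell in wild type at 12 h, and 1 rose and 3 fell in knockout.

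CCl4 livers were compared with vehicle livers of the same time and genotype. Limma called 0 of 10 higher at any time in either genotype, whereas of all genes 29% and 26.2% were higher in wild type at 12 h and 24 h, and 21.1%, 23.6% and 21.1% in knockout at 4 h, 12 h and 24 h. In wild type 8 of 10 fell at 12 h, where 29.4% of all genes fell, and 2 of 10 fell at 24 h, where 25% fell. In knockout 2 of 10 fell at 4 h (17.7% of all genes), 5 of 10 at 12 h (23.1%) and 9 of 10 at 24 h (23%). At 7 days 0 of 10 changed in either genotype, against 0.055% and 0.694% of all genes in either direction, with 0 at an unadjusted p under 0.05. At 4 h in wild type 0 of 10 were called, against 43.6% of all genes, with 0 at an unadjusted p under 0.05. A fit on those 2 groups alone called Lcn2 higher there, by 0.95 ± 0.28 (limma, adjusted p = 0.0145), and Orm2, Hp and Itih4 lower. The median of the 10 genes in wild type was -0.27, -1.42, -0.65 and -0.10 in order of time, and in knockout -0.73, -1.15, -1.35 and -0.19, while the median over all genes stayed between -0.0502 and 0.0402. The counts depend on the scaling. Under quantile normalization, which gives every library the same distribution, 5 of 10 fell in wild type at 12 h (Fga, Fgb, Fgg, Itih4 and Crp), and at 24 h 0 fell and Crp was higher by 0.71 (limma, adjusted p = 0.00318). In knockout it left 0 calls at 4 h, Crp alone at 12 h, and Orm1, Orm2 and Itih4 at 24 h, at -0.81, -1.69 and -0.79. Under it the counts of vehicle livers against 7 days stayed within 1.5 times, and 2 genes, Fga and Fgb, were called between 12 h and 24 h in wild-type vehicle livers.

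**Figure D4:**
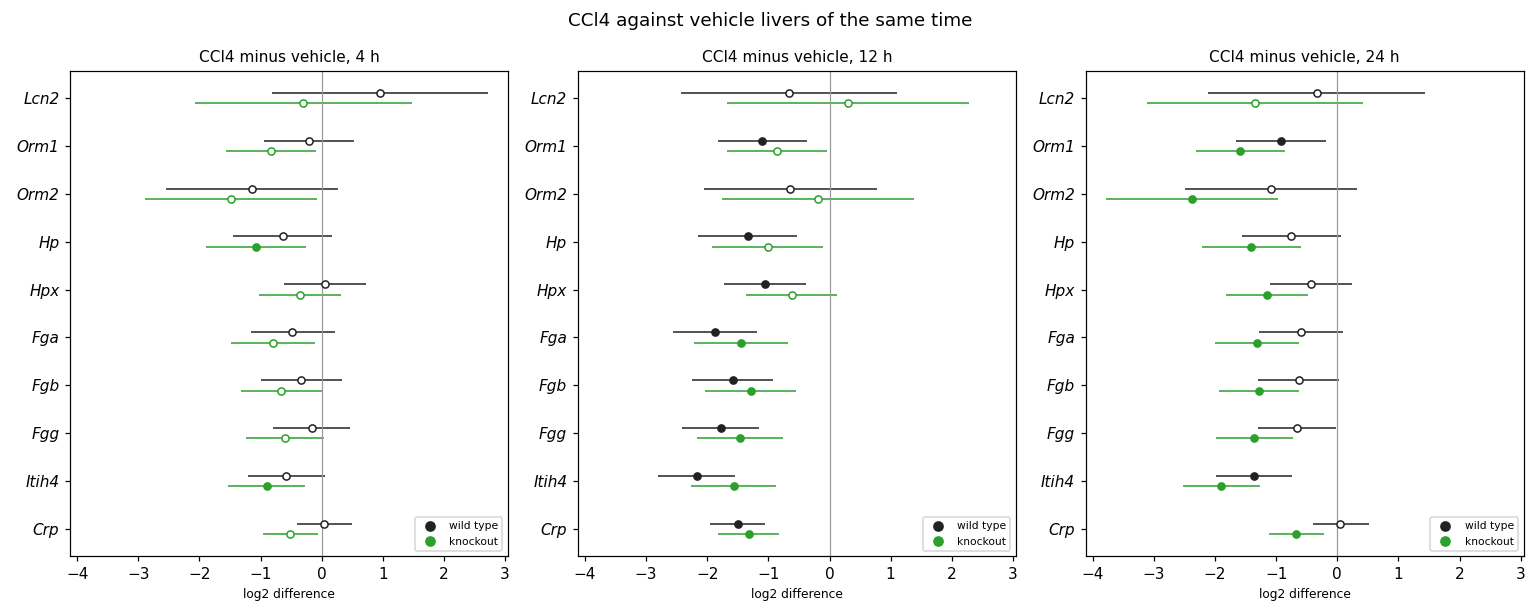
CCl4 minus vehicle livers of the same time and genotype, on the log2 scale, with 95% intervals, at 4 h, 12 h and 24 h, for wild type (black) and knockout (green). Filled points passed an adjusted p under 0.05, and all of them lie below 0, with the authors' scaling. Itih4 is filled at 12 h and 24 h in both genotypes.

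Itih4 had the largest difference in wild type. CCl4 livers at 12 h held 52315, 61855, 65519, 111839 and 91964 normalized counts, while the vehicle group spanned 372783 to 529401 apart from replicate 1, at 82448. The CCl4 livers overlapped with that 1 low vehicle liver and no other, and the difference was -2.17 ± 0.32 (limma, adjusted p = 2.21e-08). At 24 h the CCl4 livers held 177711, 235216, 102241, 130764 and 167915, all below the vehicle range of 331364 to 439008, and the difference was -1.37 ± 0.32 (limma, adjusted p = 0.000219), or -0.50 under quantile normalization (adjusted p = 0.0739). In knockout the 24 h CCl4 livers held 202368, 148024, 131705, 75664 and 145977 and the vehicle livers 518776, 508220, 530050, 391272 and 576761, again apart, with a difference of -1.90 ± 0.32 (limma, adjusted p = 1.31e-06). At 12 h in knockout the difference was -1.57 ± 0.35 and at 4 h -0.90 ± 0.32 (limma, adjusted p = 0.000174 and 0.0185).

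The fibrinogen chains followed. Fga in wild-type CCl4 livers at 12 h stood at 234054, 177410, 232265, 395667 and 337235. All were below 4 of the 5 vehicle livers, at 1002891 to 1471890, and overlapped the low replicate 1 at 284843. The difference was -1.87 ± 0.34 for Fga, -1.58 ± 0.33 for Fgb and -1.78 ± 0.32 for Fgg (limma, adjusted p = 3.91e-06, 4.03e-05 and 2.02e-06). At 24 h in wild type the chains were at -0.60, -0.63 and -0.66 (limma, adjusted p = 0.14, 0.106 and 0.0729). Under quantile normalization Fgb and Fgg turned to 0.10 and 0.12 there, so no direction is given for them. In knockout at 24 h Fga stood at 389457, 330024, 313886, 160108 and 210899 in CCl4 livers, all below the lowest vehicle liver at 487577. The knockout differences at 24 h were -1.31 ± 0.34, -1.28 ± 0.33 and -1.36 ± 0.32 for Fga, Fgb and Fgg (limma, adjusted p = 0.00132, 0.00118 and 0.000325). At 12 h in knockout they were -1.44 ± 0.38, -1.29 ± 0.37 and -1.46 ± 0.35 (limma, adjusted p = 0.00138, 0.00297 and 0.000451).

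Crp was the 1 gene whose wild-type groups did not overlap at 12 h, where 16.4% of all genes were lower without overlap. CCl4 livers held 9175, 10349, 7519, 13496 and 12954 normalized counts, below the lowest vehicle liver at 17669, and the difference was -1.50 ± 0.23 (limma, adjusted p = 5.42e-08). These CCl4 livers were also below the 7 day vehicle livers as a group, by -0.62 ± 0.23 (limma, adjusted p = 0.0125). At 24 h Crp in CCl4 livers was 37837, 35902, 13160, 16179 and 36549, a split group with 3 livers above and 2 below the vehicle range of 21622 to 29736. The difference there was 0.05 ± 0.23. In knockout at 12 h Crp was again lower without overlap, at 15469, 8432, 9469 and 9485 against 23886, 16575, 34799 and 32992, by -1.32 ± 0.25 (limma, adjusted p = 1.44e-05), and 17.5% of all genes were lower without overlap there.

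Hp, Hpx and Orm1 fell at 12 h in wild type, by 1.34 ± 0.41, 1.05 ± 0.34 and 1.10 ± 0.37 (limma, adjusted p = 0.00372, 0.00592 and 0.00856). Hp in CCl4 livers at 12 h was 209230, 70518, 278169, 325540 and 263595, and 4 of the 5 vehicle livers were at 645531 or above. At 24 h in wild type Orm1 was lower by -0.92 ± 0.37 (limma, adjusted p = 0.0306) and Hp was at -0.75 ± 0.41 (adjusted p = 0.117), although their groups did not overlap. At 24 h 4 of 10 genes in wild type did not overlap and were lower with the authors' scaling (16% of all genes), Orm1, Hp, Fgg and Itih4, and 7 of 10 in knockout (12.5%). For Fgg the gap was narrow, from 319565 in the highest CCl4 liver to 320079 in the lowest vehicle liver. Its difference turned to 0.12 under quantile normalization. Orm2 fell most in knockout at 24 h. Its CCl4 livers held 36280, 7349, 41946, 1100 and 27745, all below the lowest vehicle liver at 57671, and the difference was -2.38 ± 0.71 (limma, adjusted p = 0.00449). Replicate 4, at 1100, is 1 of the 4 low livers, and without them the Orm2 difference was -1.50 ± 0.44 (limma, adjusted p = 0.00365). Orm3 fell by 2.98 ± 0.70 in wild type and by 3.14 ± 0.70 in knockout at 24 h (limma, adjusted p = 0.000263 and 0.000183).

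At 4 h the knockout groups were apart for part of the genes. CCl4 livers were lower without overlap for 6 of 10 genes, against 13.5% of all genes, while Lcn2, Hpx, Fgg and Itih4 overlapped. Hp and Itih4 passed the test, although Itih4 reached 122416 in CCl4 livers and was 121028 in the lowest vehicle liver. Hp stood at 158409, 103763, 133628, 121168 and 162443 in CCl4 livers and at 240075, 243278, 216837, 395708 and 356779 in vehicle livers, with a difference of -1.07 ± 0.41 (limma, adjusted p = 0.0295). Leaving out knockout 4 h CCl4 replicate 4 or knockout 4 h vehicle replicate 4 ended both calls, and leaving out CCl4 replicate 2 or vehicle replicate 5 left 1. In wild type at 4 h 1 of 10 genes, Itih4, did not overlap, against 15.6% of all genes lower without overlap.

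Lcn2 was the 1 gene of the 10 called in none of the 8 comparisons of CCl4 with vehicle when all groups were fitted together, and its differences had wide intervals. In wild type at 12 h CCl4 livers held 49998, 2221, 82813, 63936 and 62853 normalized counts, overlapping the vehicle livers at 2544 to 144917, and the difference was -0.66 with a 95% interval from -2.43 to 1.11 (limma, adjusted p = 0.539). At 24 h the CCl4 livers held 85590, 82726, 41584, 31250 and 70381 and the difference was -0.34 with an interval from -2.11 to 1.43, or 0.40 under quantile normalization. In knockout at 24 h the CCl4 livers held 107803, 29064, 80764, 3886 and 73401, and the interval ran from -3.12 to 0.42. Without wild-type 12 h CCl4 replicate 2 the wild-type 12 h difference turned to 0.31, so its direction rests on 1 liver. Orm2 at 12 h also missed the threshold, at -0.64 ± 0.71 in wild type and -0.18 ± 0.79 in knockout, where it turned to 0.40 under quantile normalization.

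Several of these counts depended on the livers kept. Without the 4 low livers the count lower became 3 in wild type at 4 h, 7 in wild type at 24 h, 8 in knockout at 4 h and 9 in knockout at 12 h. The 4 h groups and the wild-type 24 h groups hold none of these livers. Their counts changed because the spread is estimated over all groups together. Without knockout 24 h CCl4 replicate 4 alone it was 5 at 24 h in knockout, and without knockout 12 h vehicle replicate 3 it was 8 at 12 h. Leaving out replicate 3 or 4 of the wild-type 24 h CCl4 group, or replicate 5 of the 24 h vehicle group, left 1 call in wild type at 24 h. With the 2 livers that resemble the other treatment kept, 0 of 10 genes were called in knockout at 12 h and 1 at 4 h. The wild-type comparison without mice numbered below 7000 gave 5 calls at 12 h and 0 at 24 h.

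Most hepatocyte markers were lower after CCl4. Of 12 markers 11 fell in wild type at 12 h and 10 at 24 h, and in knockout 10 fell at 12 h and 8 at 24 h, with 0 rising. Their summed count ran from 1419361 to 3209565 in wild-type CCl4 livers at 12 h against 3416931 to 5724577 in vehicle livers, and from 1853641 to 2747212 against 3131319 to 3987505 at 24 h. In knockout it ran from 1710181 to 3175646 against 3387065 to 4219911 at 24 h. Alb made up most of this sum. At 12 h in wild type Alb alone ran from 951199 to 2381932 in CCl4 livers and from 2312116 to 4236493 in vehicle livers. Fewer hepatocytes and less RNA per hepatocyte cannot be told apart in whole liver, and the part of this fall in the acute phase result was not tested. Markers of other cell types changed too. The shares of all genes that rose and fell at each time are those given above for CCl4 against vehicle livers. In wild type at 12 h 8 of 8 sinusoidal endothelial and 6 of 8 Kupffer cell markers fell, and in knockout 3 of 8 and 6 of 8, with 0 rising. At 24 h 4 of 8 of each fell in wild type, and in knockout 0 of 8 sinusoidal markers changed while 3 of 8 Kupffer cell markers fell and 1 rose. Of the neutrophil markers 0 of 9 rose and 2 fell in wild type at 12 h and 0 rose and 1 fell in knockout. At 24 h 3 rose and 0 fell in wild type, where 26.2% of all genes rose and 25% fell. In knockout at 24 h 3 rose and 1 fell, where 21.1% of all genes rose and 23% fell. No change in neutrophils is read from these counts. Of 11 monocyte and macrophage markers 6 rose and 1 fell in wild type at 24 h, where 26.2% of all genes rose and 25% fell, and 8 rose and 0 fell in knockout, where 21.1% rose and 23% fell.

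Other secreted liver proteins fell too. Of 26 other positive acute phase proteins, 19 fell and 2 rose in wild type at 12 h (median -1.42), 12 fell and 3 rose at 24 h, and 18 fell and 3 rose in knockout at 24 h. C4b fell by 1.86 ± 0.20, Itih3 by 1.89 ± 0.25 and C3 by 1.79 ± 0.26 in wild type at 12 h (limma, adjusted p = 5.4e-12, 1.94e-09 and 1.59e-08), and Cd14, a lipopolysaccharide receptor also made by macrophages, rose by 3.29 ± 0.46 (adjusted p = 1.14e-08). Of 15 negative acute phase proteins 13 fell and 0 rose at 12 h in wild type, so most proteins of both kinds were lower. F12 fell by 1.22 ± 0.11 and Apom by 1.47 ± 0.14 (limma, adjusted p = 1.71e-14 and 4.96e-14). Of 16 genes of fibrin formation and lysis 12 fell and 3 rose, with F7 down by 1.86 ± 0.16, F10 by 1.52 ± 0.14 and Plg by 1.75 ± 0.17 (limma, adjusted p = 3.37e-15, 1.03e-14 and 4.51e-14).

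Regulators were tested in the same comparisons. In wild type at 12 h 7 of 24 STAT3, C/EBP and NF-kB genes rose and 5 fell, where 29% of all genes rose and 29.4% fell. Rela rose by 1.40 ± 0.13, Relb by 3.15 ± 0.34 and Nfkb2 by 2.26 ± 0.25 (limma, adjusted p = 1.63e-14, 4.27e-12 and 1.06e-11). At 24 h Il6ra fell by 2.02 ± 0.22 in wild type and by 2.12 ± 0.22 in knockout (limma, adjusted p = 9.74e-12 and 3.69e-12), and Il1rap, the second chain of the interleukin-1 receptor, fell by 1.48 ± 0.19 in wild type (adjusted p = 1.27e-09). Cebpa, a C/EBP factor of mature hepatocytes, fell by 1.13 ± 0.22 in knockout at 24 h (limma, adjusted p = 3.3e-05). Stat3 fell by 0.90 ± 0.20 there (limma, adjusted p = 0.000182). The interleukin-1 antagonist Il1rn rose by 3.00 ± 0.57 and Tnf by 2.77 ± 0.54 in wild type at 24 h (limma, adjusted p = 9.66e-06 and 1.86e-05). For haem handling, into which Hp and Hpx feed, the haem transporter Slc48a1 rose by 1.47 ± 0.13 and Lrp1, the receptor for haem bound to hemopexin, fell by 2.34 ± 0.27 in wild type at 12 h (limma, adjusted p = 5.53e-15 and 2.87e-11).

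Against the 7 day vehicle livers, some of the 10 genes were higher in CCl4 livers too. Vehicle and CCl4 courses share these 7 day livers, so both are given side by side. In wild type 3 of 10 genes rose at 4 h (28.1% of all genes), 4 rose and 1 fell at 12 h (33.6% and 34.4%), and 7 rose at 24 h (28.8%). In knockout 1 rose at 4 h (26.6%), 3 at 12 h (30.1%) and 5 at 24 h (24.8%). Lcn2 rose at all 3 times in both genotypes, by 3.23, 4.65 and 5.47 in wild type and by 3.10, 4.66 and 4.83 in knockout, against 2.29, 5.30 and 5.81, and 3.39, 4.35 and 6.18, in vehicle livers. Orm2 in CCl4 livers was at 0.03 at 4 h (-0.23 under quantile normalization), 2.09 at 12 h and 3.33 at 24 h in wild type, where vehicle livers were at 1.17, 2.73 and 4.42. Fga was at 0.51, 0.36 and 0.77 in wild-type CCl4 livers, against 0.99, 2.24 and 1.36 in vehicle livers. Itih4 was at 0.24, -0.32 (0.07 under quantile normalization) and 0.77, against 0.82, 1.85 and 2.13. The highest CCl4 group mean of Fga was 33.8% of the highest vehicle group mean in wild type, and for Itih4, Orm2, Hp, Lcn2 and Crp this was 40.1%, 50.6%, 62.2%, 67.2% and 91.1%. For Fga, Lcn2 and Crp the times differ, as the CCl4 mean is of 24 h and the vehicle mean of 12 h. For Itih4, Orm2 and Hp both means are of 24 h. The count at 12 h in wild type rested on single livers, since 3 were called without CCl4 replicate 3 or 4, and in knockout at 24 h 3 were called without CCl4 replicate 1 or 3. Without the 4 low livers 5 rose and 1, Crp, fell in knockout at 12 h.

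Between 12 h and 24 h, a comparison added after the values were seen, 4 of 10 genes rose in wild-type CCl4 livers, against 18.4% of all genes: Crp by 1.28, Hpx by 1.16, Hp by 1.12 and Itih4 by 1.09. In knockout CCl4 livers Crp alone rose, by 0.81, against 9.77% of all genes, and without the 4 low livers 3 rose. Without mice numbered below 7000 the wild-type count was 1.

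The genotypes were compared directly. The CCl4 effect differed between knockout and wild type for 0 of 10 genes at each time by limma, against 0.00687%, 0%, 0% and 0.00687% of all genes at 4 h, 12 h, 24 h and 7 days. The test over all times called 0 of 10, against 0.0137% of all genes, with Crp lowest at an unadjusted p of 0.088 (limma). At 24 h, where 9 genes fell in knockout and 2 in wild type, the differences of effects ran from -1.29 to -0.53. Each interval at 24 h except that of Crp included 0, the widest running from -3.51 to 1.50, and 1 of 10 was at an unadjusted p under 0.05. Crp differed by -0.73 with an interval from -1.37 to -0.09 (unadjusted p = 0.0256, adjusted p = 0.936, limma). The counts of 9 and 2 thus do not show a difference between genotypes. Within vehicle livers over all times, knockout differed from wild type by 0.03 to 0.17, and within CCl4 livers by -0.28 to 0.09, with 0 of 10 called in either (0.282% and 0.337% of all genes) and 0 at an unadjusted p under 0.05. The intervals of these means reached from -0.76 to 1.04 for the widest, Lcn2 in vehicle livers, and from -0.17 to 0.29 for the narrowest there, Crp. Taken time by time, limma called 0 of 10 genes in vehicle livers, against 0.343%, 0%, 0% and 0.055% of all genes in order of time, and 0 of 10 in CCl4 livers, against 0.584%, 0.0206%, 0.0137% and 0%. At 24 h after CCl4 the differences ran from -1.07 to -0.22, with a median of -0.47 that includes the low replicate 4, and 1 of 10, Crp at -0.48, had an unadjusted p under 0.05 (limma, 0.0381).

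**Figure D5:**
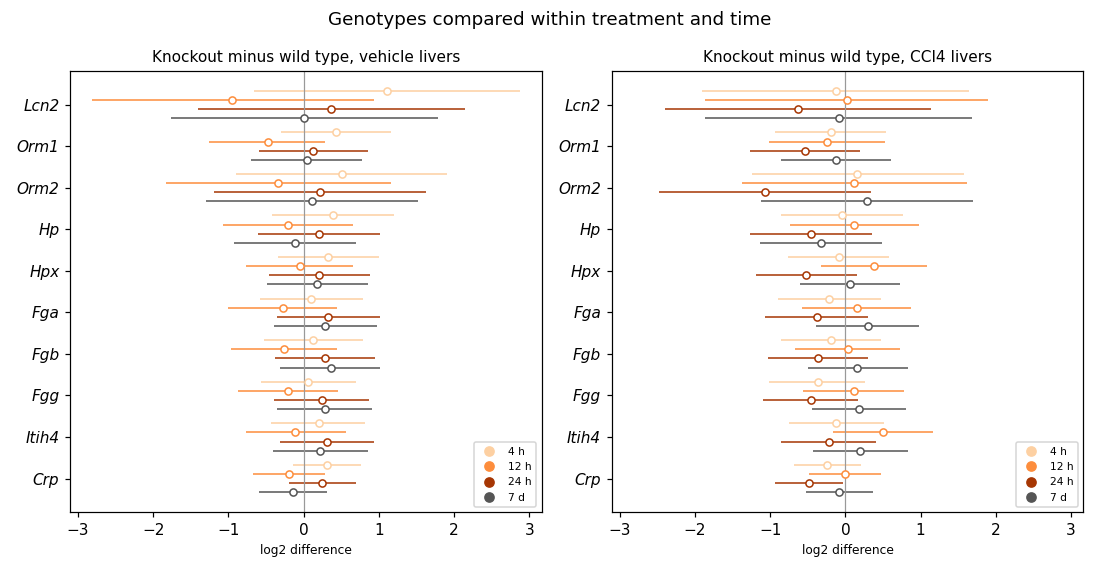
Knockout minus wild type within vehicle (left) and CCl4 (right) livers at each time, on the log2 scale, with 95% intervals. All points are open, as 0 of 10 genes passed an adjusted p under 0.05 at any time. Lcn2 and Orm2 have the widest intervals.

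The genes most like each of the 10, by Pearson's r of log2 values over 78 livers, were mostly other plasma proteins of the liver. Saa1 and Saa2 were closest to Lcn2, with r of 0.95 and 0.946. Lrg1 and Fgl1 were closest to Hp (0.951 and 0.928), Fgl1 and Apcs to Hpx (0.917 and 0.904), and Apcs and Fgl1 to Orm1 (0.935 and 0.93). Orm2 was nearest to Isyna1 and Lrg1 (0.903 and 0.899). Serpina10 was nearest to Fga, Fgb and Fgg (0.866, 0.907 and 0.919). Itih4 was nearest to Itih3 and C3 (0.934 and 0.919). Cldn2 had r of 0.795 with Crp. The livers share their groups, so these values describe the courses above.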

How the data were processed

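Whole-liver RNA from 80 mice was sequenced. The authors deposited 1 table of normalized count values, a signal per gene and library, made with STAR, HTSeq and DESeq2 on GRCm38 per the submitters' processing notes, which give no versions. The annotation and strand setting are not given in the sources used here. Values within a library are whole multiples of 1 step (100% of values within 0.01 of a step), from which total reads were computed. Group, time and treatment came from the labels.

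Differences were computed with limma 3.58.1 in R 4.3.3 on log2(value + 1), with 16 group means fitted to 78 livers, a mean-dependent prior variance and 66.8 degrees of freedom in all. A log2 difference of this kind understates the change of low genes. Genes needed 10 normalized counts in 5 livers, which removed 2 of 14560. The median residual SD was 0.332. The fit was tested on simulated data first. Levels, ratios and figures used Python 3.11.15, numpy 2.4.6, pandas 2.3.3 and matplotlib 3.10.9. No interval from counting was needed, since each value is compared over animals.

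The 10 members and the gene lists were chosen with earlier results of these data known. Of each list, up to 4 genes with the smallest adjusted p per comparison are named, besides all 10 members, Adamts12, Orm3, Saa1, Saa2 and the 2 genes most like each member with a mean of at least 100. Of these, 1 gene and the promoter of 1 member are not reported here. Sprr1a, Cyp2e1 and Itih1 fall outside this rule and were chosen after their values were seen. Replicate numbers do not pair livers: residuals of livers sharing a number had a median r of -0.0056 over 570 pairs, against 0.00098 over 2281 other pairs. No 2 libraries were identical. Alternatives were a pseudocount of 8, no filter, quantile normalization, all 80 livers, wild-type mice numbered 7000 or above, a replicate block, fits on the groups compared alone, each liver left out, and, chosen after seeing the data, the 4 low livers left out.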

Additional observations from a re-analysis of the deposited data

Results flagged for a closer look

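A liver is listed here where its gap to the nearest other liver of its group, divided by the range of the group, exceeded Dixon's limit at the 95% level. Of 160 sets of 1 gene in 1 group, 18 had such a liver. Chance gives about 1 in 20 for independent sets of normally distributed values. The gaps were taken on counts without logs and the genes move together, so 18 of 160 is not read as an excess.

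Wild-type 4 h vehicle replicate 4 was high for Orm2 at 13129 normalized counts (4061 to 6089 in the others), Fgb at 665285 (344821 to 389787) and Fgg at 497408 (235231 to 282006). Wild-type 24 h vehicle replicate 5 was high for all 3 fibrinogen chains, with Fga at 628099 (489071 to 518236), Fgb at 561912 (405187 to 424693) and Fgg at 478567 (320079 to 336695). Knockout 4 h CCl4 replicate 4 was low for them, with Fga at 152956 (274296 to 297475), Fgb at 191668 (287429 to 325719) and Fgg at 126520 (214543 to 250463). In each of these 3 livers the fibrinogen genes thus lay on the same side of the group.

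Of the low livers of the report, wild-type 12 h vehicle replicate 1 was listed for Hp at 113396 (645531 to 849899) and Fgg at 183690 (636759 to 795987), and wild-type 12 h CCl4 replicate 2 for Orm2 at 2353 (14912 to 18836).

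The remaining livers were listed for 1 gene each. Orm2 was 87345 in wild-type 24 h vehicle replicate 1 (47248 to 54555) and 13500 in knockout 4 h vehicle replicate 5 (7229 to 7935). Fgb was 98424 in wild-type 24 h CCl4 replicate 3 (345425 to 414387). Itih4 was 74411 in wild-type 7 day vehicle replicate 3 (94911 to 100582). Crp was 33151 in wild-type 4 h CCl4 replicate 1 (15227 to 19989) and 15469 in knockout 12 h CCl4 replicate 1 (8432 to 9485).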

How the results depend on the processing

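Counts below are of the 10 genes called by limma. For CCl4 against vehicle, quantile normalization gave 5 in wild type at 12 h in place of 8, 1 at 24 h in place of 2, and in knockout 0 at 4 h in place of 2, 1 at 12 h in place of 5 and 3 at 24 h in place of 9. Without mice numbered below 7000 wild type had 5 at 12 h and 0 at 24 h. With all 80 livers knockout had 1 at 4 h and 0 at 12 h. Without the 4 low livers it was 3 and 7 in wild type at 4 h and 24 h, and 8 and 9 in knockout at 4 h and 12 h. Fits on the groups compared alone gave 4 (1 higher, 3 lower) and 5 in wild type at 4 h and 12 h, and 7 and 2 in knockout at 4 h and 12 h. Leaving out each liver gave 7 to 9 and 1 to 3 in wild type at 12 h and 24 h, and 0 to 3, 5 to 8 and 5 to 9 in knockout at 4 h, 12 h and 24 h.

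For the vehicle course, wild type at 4 h had 1 without mice below 7000, 7 without the low livers and 7 in the groups alone, and at 24 h 3 without mice below 7000. Knockout had 9 without the low livers and 8 in the groups alone at 4 h, and 4 in the groups alone at 12 h. Leaving out each liver gave 1 to 4 in wild type and 3 to 7 in knockout at 4 h, and 6 to 10 in knockout at 12 h. For CCl4 livers against 7 day vehicle, knockout at 12 h had 7 under quantile normalization and 5 with all 80, all higher, in place of 3. It had 6 without the low livers (5 higher, 1 lower) and 5 in the groups alone (4 higher, 1 lower). At 24 h knockout had 2 in the groups alone. Leaving out each liver gave 2 to 3, 3 to 5 and 5 to 10 in wild type and, at 12 h and 24 h, 3 to 4 and 3 to 5 in knockout. For 24 h against 12 h, wild-type vehicle livers had 2 (quantile) and 3 (low livers), all lower at 24 h, and 0 to 3 with each liver left out. Knockout vehicle livers had 2 (all 80), both higher at 24 h. CCl4 livers had 1 (mice below 7000), 2 (groups alone) and 3 to 5 (each liver left out) in wild type, and 0 (all 80), 3 (low livers) and 0 (groups alone) in knockout. The calls between genotypes were 0 under every alternative run.

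Of the other pathway genes, 36 in place of 80 changed with CCl4 in wild type at 24 h and 6 in place of 41 along the vehicle course at 24 h without mice below 7000. With all 80 livers 38 in place of 84 changed with CCl4 in knockout at 12 h. In the groups alone the vehicle course had 63 in wild type at 24 h and 20 in knockout at 12 h in place of 43. At 7 days 1 in place of 0 changed in wild type under quantile normalization, under the replicate block and without the low livers.

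Values that changed sign were uncalled both ways. For CCl4 against vehicle these were Lcn2 in wild type at 12 h, at 0.43 without mice below 7000 and -1.74 to 0.31 with each liver left out (0.31 without CCl4 replicate 2), and, under quantile normalization, Lcn2, Fgb and Fgg in wild type at 24 h at 0.40, 0.10 and 0.12 and Hpx and Orm2 in knockout at 12 h at 0.41 and 0.40. Orm2 there was also at 0.40 with all 80 livers and at -1.39 to 0.48 with each liver left out, above 0 without vehicle replicate 4 or 5. Crp in wild type at 24 h was at -0.23 without mice below 7000 and at -0.09 to 0.29 with each liver left out, below 0 without CCl4 replicate 1, 2 or 5. Against 7 day vehicle, Orm2 in wild-type CCl4 livers at 4 h was at -0.23 (quantile), -0.01 (mice below 7000) and -0.20 to 0.15 with each liver left out, and Itih4 at 12 h was at 0.07 (quantile). For 24 h against 12 h in wild type, vehicle Lcn2 and Hp were at -0.57 and -0.02 without the low livers or without 12 h replicate 1 alone, and at up to 0.88 and 0.71 with another liver left out. CCl4 Lcn2 was at -0.26 without mice below 7000, at -0.14 without the low livers or 12 h replicate 2 alone, and at up to 1.16 with another liver left out. The cause was not tested.

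A pseudocount of 8, no filter and the replicate block changed no direction or call among 167 values of single members. The tests on counts by edgeR and DESeq2 were not run. Depth was not limiting, and the number of livers sets the precision.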
